A study of Mus musculus with 12 samples.

Results

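The genes described here build cholesterol and fatty acids or control that synthesis. They are 34 genes: the enzymes of the mevalonate pathway and of the steps that turn squalene into cholesterol, the regulators of the sterol regulatory element-binding proteins (SREBPs), 3 sterol carriers, and the enzymes that make, elongate and desaturate fatty acids. A gene was taken from the array row that carries its symbol alone, and where a gene had several rows, from the one whose mean across the 12 arrays was highest. Of the 34 genes, 31 had such a row, among 22180 genes with one in the whole table. Acat2, which condenses acetyl groups at the entry to the mevalonate pathway, is not analysed here, and Idi1, an isopentenyl diphosphate isomerase, and Scd2, a stearoyl-CoA desaturase, stood only in rows shared with another symbol and are not used here.

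The cells were bone marrow-derived macrophages, grown from mouse marrow in medium conditioned by L929 cells, a fibroblast line that secretes the macrophage growth factor CSF1. There were 4 groups of 3 arrays each: Rasgef1b_fl/fl_vav-icre cells given R848 for 4 h, wild-type cells given R848 for 4 h, Rasgef1b_fl/fl_vav-icre cells with saline, and wild-type cells with saline. Rasgef1b_fl/fl_vav-icre mice carry a loxP-flanked gene for Rasgef1b, an exchange factor of small GTPases, and a Cre recombinase under Vav regulation, which acts across blood-forming cells and not in macrophages alone. They are called knockout below. R848 (resiquimod) is a small synthetic agonist of the endosomal RNA receptor TLR7. The labels give no time for saline, no age or sex of the mice, and no group with Cre alone, so that an effect of Cre and of the lost gene cannot be told apart. They also do not say whether replicates were separate animals or cultures, so that a p-value refers to array-to-array spread, part of which may be technical.

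As background, cells match sterol synthesis to supply through SREBPs, transcription factors that are made as membrane proteins of the endoplasmic reticulum. When sterol is scarce, the escort protein SCAP carries them to the Golgi, where they are cut and released to the nucleus. When sterol or oxysterols are plentiful, INSIG proteins hold SCAP back. SREBP2, the product of Srebf2, mainly drives the sterol genes and SREBP1, the product of Srebf1, mainly the fatty acid genes, and both work on promoters together with NF-Y, a factor that binds CCAAT boxes. In macrophages, sterol synthesis, oxysterols and fatty acid desaturation are known to be tied to innate immune signalling.

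The promoters of members that the values below turn on are shown first. They are the genes with the largest increases with R848 past the threshold in wild-type cells (Hmgcs1 and Hsd17b7), a gene that stood low on 1 knockout replicate (Cyp51), and 2 genes that fell (Dhcr7 and Elovl6). Each line gives the 200 bases before the transcription start from RefSeq on build GRCm38.p6. They lie at chr13:119690151-119690350 on the plus strand for Hmgcs1, chr1:169969206-169969405 on the minus strand for Hsd17b7, chr5:4104698-4104897 on the minus strand for Cyp51, chr7:143830014-143830213 on the plus strand for Dhcr7, 1 of its 3 listed starts, and chr3:129532186-129532385 on the plus strand for Elovl6. Capitals mark the sterol regulatory element TCACNCCAC and the NF-Y box CCAAT, each searched on both strands. The Dhcr7 start shown was picked because it had the most NF-Y boxes, 2, and the other listed starts had 0.
Hmgcs1: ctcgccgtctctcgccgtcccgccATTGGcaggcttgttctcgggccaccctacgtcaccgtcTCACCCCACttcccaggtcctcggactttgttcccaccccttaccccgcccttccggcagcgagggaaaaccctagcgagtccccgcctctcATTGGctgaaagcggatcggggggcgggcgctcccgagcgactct
Hsd17b7: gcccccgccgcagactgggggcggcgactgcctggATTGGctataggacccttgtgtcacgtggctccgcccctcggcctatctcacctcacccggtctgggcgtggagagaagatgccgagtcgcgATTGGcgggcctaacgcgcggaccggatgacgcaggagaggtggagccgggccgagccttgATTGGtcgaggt
Cyp51: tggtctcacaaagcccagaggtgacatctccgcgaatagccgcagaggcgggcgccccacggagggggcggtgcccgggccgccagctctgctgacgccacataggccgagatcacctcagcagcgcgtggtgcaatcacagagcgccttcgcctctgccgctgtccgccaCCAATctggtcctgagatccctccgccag
Dhcr7: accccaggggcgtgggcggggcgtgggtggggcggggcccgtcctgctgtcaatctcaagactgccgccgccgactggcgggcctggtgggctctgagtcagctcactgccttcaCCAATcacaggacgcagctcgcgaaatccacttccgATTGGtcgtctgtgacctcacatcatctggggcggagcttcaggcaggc
Elovl6: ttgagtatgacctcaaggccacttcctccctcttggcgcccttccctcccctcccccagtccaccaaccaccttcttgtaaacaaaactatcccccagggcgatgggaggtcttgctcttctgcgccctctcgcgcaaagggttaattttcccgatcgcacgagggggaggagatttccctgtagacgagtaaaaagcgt
In 300-base windows, from 250 bases before to 50 bases after the start, 24 of the 31 measured members had a RefSeq promoter. The sterol regulatory element as spelled here was in 1 of these 24, Hmgcs1, and in 1.44% of all 27025 genes with a window. The NF-Y box was in 20 of the 24 (83.3%) and in 41.1% of all genes. Elovl6, Acaca, Fads2 and Scap had 0 boxes, and Mvk had the highest number, 5. A match of letters is a description of the window and not a measured binding site.

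Values are log2 intensities after RMA, a procedure that corrects background, equalizes the distributions of the arrays and summarizes the probes of a row, so that a difference of 1 is a doubling. Across the 14079 genes tested, correlations within a group were 0.9909 to 0.9964, and those across groups 0.9159 to 0.9945. All 31 members lay far enough above the dim end of the arrays to be tested. Rasgef1b itself read 9.45, 8.60 and 9.36 in knockout and 9.84, 9.84 and 9.69 in wild-type cells with R848, against 8.63, 7.88 and 8.72 in knockout and 9.03, 9.19 and 9.14 in wild-type cells with saline. The genotypes did not overlap in either treatment, the averaged difference was -0.68 ± 0.15 (limma adjusted p = 0.036), and signal was still present in the knockout. Within a treatment the difference did not pass, at -0.65 ± 0.21 with R848 (limma adjusted p = 0.333) and -0.71 ± 0.21 with saline (0.158). Knockout replicate 2 was the lowest array of its group in both treatments. All 8 macrophage markers were above the dim limit (4.31 to 4.35) on every array. Of the markers of other cells, 4 of 6 fibroblast, 3 of 5 dendritic cell, 2 of 8 neutrophil, 1 of 3 B cell, 1 of 5 T cell, 0 of 3 mast cell and 0 of 4 adipocyte genes were. In bulk RNA, fewer cells of a type and less RNA per cell cannot be told apart.

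R848 raised some sterol synthesis genes and lowered genes of fatty acid desaturation and elongation, in both genotypes: 2 of those 4 genes passed without a block for the replicate number, and all 4 with it. That block within genotype was chosen after the data were seen, and the wild-type arrays did not meet the check for pairing by number. In knockout cells 14 of the 31 members passed the threshold (an adjusted p under 0.05 in limma, a linear model over all tested genes), 8 of them higher and 6 lower, a share of 45.2%. Of all genes tested in knockout cells 41.6% passed, 15.6% higher and 26% lower. In wild-type cells 13 members passed, 7 higher and 6 lower, a share of 41.9%, where 38.3% of all genes passed, 14.6% higher and 23.6% lower. Among the 16 enzymes from acetyl units to cholesterol, 6 rose and 2 fell in knockout cells, and 5 rose and 2 fell in wild-type cells, with median changes of 0.32 in knockout and 0.26 in wild-type cells. The medians over all genes were -0.03 in knockout and -0.02 in wild-type cells. Of these 16, 37.5% were higher in knockout and 31.2% in wild-type cells. Among the 7 fatty acid enzymes 0 rose and 2 fell in each genotype, with medians of -0.59 in knockout and -0.52 in wild-type cells. The 2 that fell were 28.6% of the 7, near the share of all genes that were lower. Median centring of the arrays shifted the median over all genes to 0.12 in knockout and 0.11 in wild-type cells. After it, 15 members were higher and 4 lower in knockout cells, where 31.3% of all genes were higher and 17.9% lower. In wild-type cells 9 were higher and 4 lower after it, where 27.1% of all genes were higher and 16.5% lower.

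The share of members past the threshold depended on how the replicates were treated, more than that of all genes. The same-numbered arrays of the knockout deviated together, and with that number as a block within each genotype 14 members were higher and 8 lower in knockout cells, 71.0% of the 31, where 44.5% of all genes passed, 16.8% higher and 27.8% lower. In wild-type cells, where the numbers did not meet the check for pairing, 13 were higher and 9 lower in that fit, also 71.0%, where 41.2% of all genes passed, 15.8% higher and 25.4% lower. Without knockout replicate 3 in both treatments, 12 members were higher and 7 lower in each genotype, 61.3%, where 35.9% of all genes passed in knockout and 38.4% in wild-type cells. Both of these fits were chosen after the data were seen. The members stood low on knockout replicate 3, so leaving it out narrows their spread by construction. The block likewise takes up what same-numbered arrays share. Calls gained in either fit, here and below, are therefore no separate support for a response. Of the calls in knockout cells, the block added Fdps, Sqle, Msmo1, Insig1, Stard4 and Fasn (higher) and Fads2 and Scd1 (lower). Single arrays moved the counts of higher members: 13 were higher in knockout cells without knockout saline replicate 2 or knockout R848 replicate 3, 5 were without knockout saline replicate 3, and 3 were higher in wild-type cells without wild-type saline replicate 2 or wild-type R848 replicate 1. Of all genes, 14.0%, 14.3% and 14.6% were higher in knockout cells without these arrays, in the same order, and 13.0% and 13.5% in wild-type cells.

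**Figure D1:**
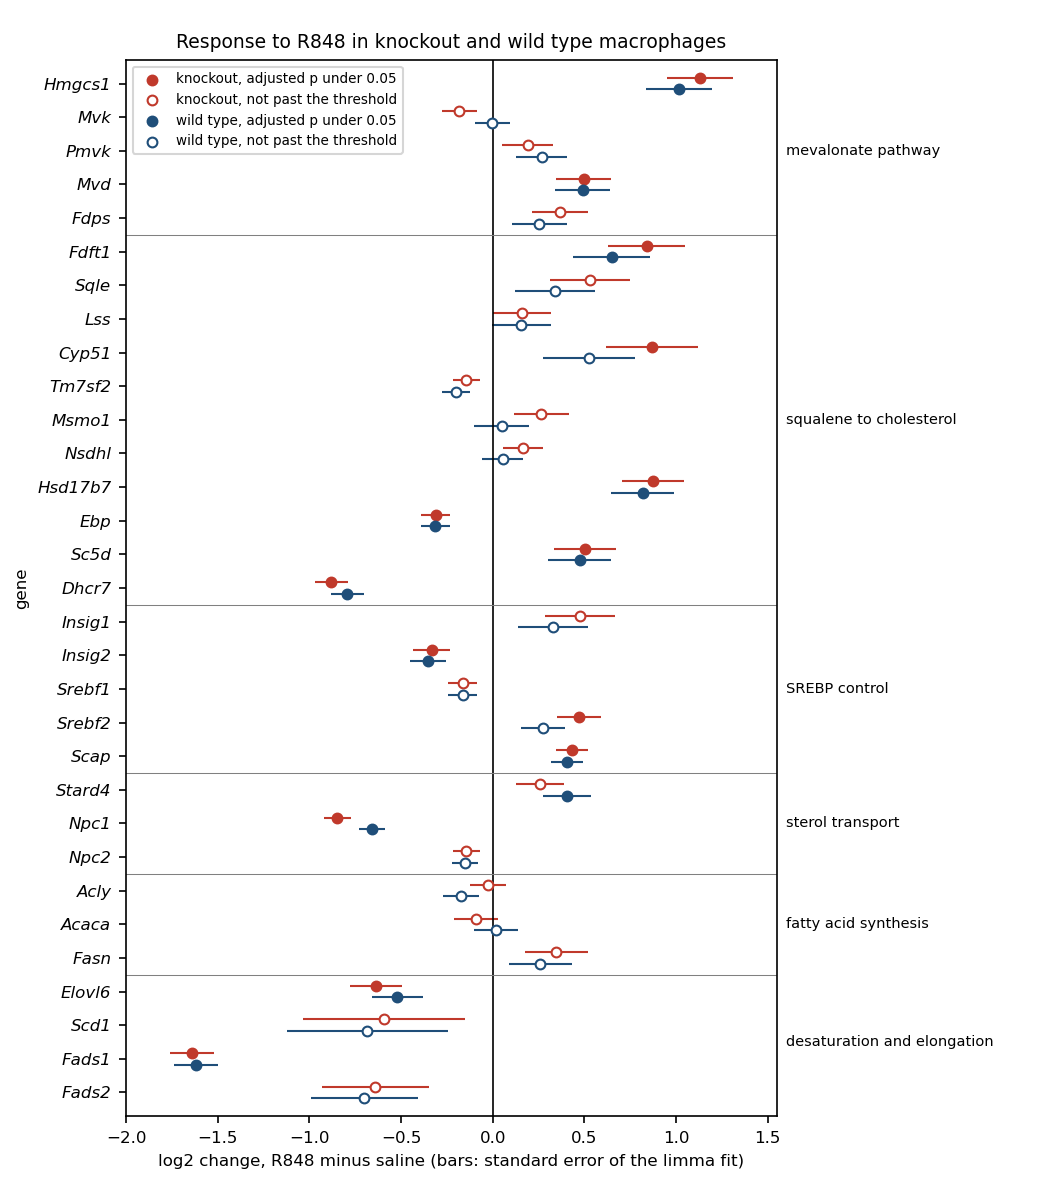
Change with R848 on the log2 scale for the 31 measured members, in rows by role, with knockout in red above wild type in blue and bars for the standard error of the limma fit. Filled points passed an adjusted p of 0.05 in the fit without a block. Hmgcs1, at 1.13 in knockout and 1.01 in wild type, lies furthest to the right, and Fads1, at -1.64 and -1.62, furthest to the left.

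Of the mevalonate genes, Hmgcs1 showed the largest rise. It encodes the cytosolic HMG-CoA synthase, which makes the substrate of HMG-CoA reductase. Its values were 9.65, 9.79 and 9.09 in knockout and 9.69, 9.76 and 9.49 in wild-type cells with R848, against 8.40, 8.76 and 7.98 in knockout and 8.77, 8.57 and 8.56 in wild-type cells with saline. All R848 arrays lay above all saline arrays, and knockout replicate 3 was the lowest of its group in both treatments. The rise was 1.13 ± 0.18 (SE) in knockout (limma adjusted p = 0.000148), a 2.19-fold change, and 1.01 ± 0.18 in wild-type cells (adjusted p = 0.000422), a 2.02-fold change. Mvd, which makes isopentenyl diphosphate by decarboxylation, rose by 0.50 ± 0.15 in knockout (limma adjusted p = 0.014) and 0.49 ± 0.15 in wild-type cells (0.0162). The Mvd call was lost without knockout saline replicate 3 (limma adjusted p = 0.0749) or knockout R848 replicate 1 (0.0769) in knockout cells. In wild-type cells it was lost without wild-type saline replicate 2 (0.0841) or wild-type R848 replicate 1 (0.0764).

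The other 3 mevalonate genes did not pass the threshold in either genotype without a block. Mvk, the mevalonate kinase, read 6.16, 6.13 and 5.99 in knockout and 6.26, 6.47 and 6.56 in wild-type cells with R848, against 6.20, 6.39 and 6.24 in knockout and 6.39, 6.34 and 6.57 in wild-type cells with saline. With R848 the knockout arrays all lay below the wild-type arrays, and with saline they overlapped. Its difference with R848 was -0.34 ± 0.095 (limma adjusted p = 0.247). Pmvk, the phosphomevalonate kinase, changed with R848 by 0.19 in knockout and 0.27 in wild-type cells, and Fdps, which makes farnesyl diphosphate, by 0.37 in knockout and 0.25 in wild-type cells. With the block within genotype Fdps passed in knockout (limma adjusted p = 0.00142) and in wild-type cells (0.0149), and Pmvk in wild-type cells (0.0135). After median centring Fdps also passed in knockout (limma adjusted p = 0.0131) and Pmvk in wild-type cells (0.0304).

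Past farnesyl diphosphate the pathway is committed to sterols, and its first enzyme, squalene synthase, is encoded by Fdft1. Fdft1 read 8.73, 8.77 and 7.87 in knockout and 8.89, 8.51 and 8.69 in wild-type cells with R848, against 7.89, 7.79 and 7.17 in knockout and 8.13, 8.04 and 7.97 in wild-type cells with saline. In wild-type cells the treatments did not overlap, while in the knockout the R848 value of replicate 3 lay just below the saline value of replicate 1. The rise was 0.84 ± 0.21 in knockout (limma adjusted p = 0.00524) and 0.65 ± 0.21 in wild-type cells (0.026). The wild-type call was lost with a robust, intensity-dependent spread (limma adjusted p = 0.0505) and without wild-type saline replicate 2 (0.0631) or 3 (0.0735) or wild-type R848 replicate 1 (0.0939) or 3 (0.0607).

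Cyp51, the lanosterol 14-alpha-demethylase, was called in knockout cells alone without a block. It read 7.54, 7.75 and 6.79 in knockout and 7.70, 7.55 and 7.60 in wild-type cells with R848, against 6.69, 6.98 and 5.81 in knockout and 7.19, 7.01 and 7.08 in wild-type cells with saline. The wild-type treatments did not overlap, and the R848 value of knockout replicate 3 lay inside the range of the knockout saline arrays. Its change was 0.87 ± 0.25 in knockout (limma adjusted p = 0.012) and 0.52 ± 0.25 in wild-type cells (0.123), and the difference between these changes was 0.34 ± 0.36 (0.996). Between arrays of the same number the change was 0.85, 0.77 and 0.98 in knockout and 0.51, 0.54 and 0.52 in wild-type cells. The knockout call was lost without knockout saline replicate 3 (0.52, limma adjusted p = 0.0574) or knockout R848 replicate 2 (0.67, 0.0658). Without knockout replicate 3 in both treatments, Cyp51 was called in knockout (0.81, limma adjusted p = 0.000154) and in wild-type cells (0.52, 0.00079).

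Hsd17b7, a 3-ketosteroid reductase that acts during removal of the C4 methyl groups, rose in both genotypes. It read 7.39, 7.09 and 6.57 in knockout and 7.35, 7.29 and 7.18 in wild-type cells with R848, against 6.39, 6.21 and 5.83 in knockout and 6.55, 6.38 and 6.44 in wild-type cells with saline. The treatments did not overlap in either genotype. The rise was 0.87 ± 0.17 in knockout (limma adjusted p = 0.000686) and 0.82 ± 0.17 in wild-type cells (0.00127). Sc5d, the lathosterol desaturase, read 8.52, 8.76 and 7.99 in knockout and 8.70, 8.68 and 8.62 in wild-type cells with R848, against 7.94, 8.22 and 7.60 in knockout and 8.23, 8.12 and 8.23 in wild-type cells with saline. It rose by 0.50 ± 0.17 in knockout (limma adjusted p = 0.0247) and 0.47 ± 0.17 in wild-type cells (0.0358), with overlap in the knockout, where replicate 3 with R848 lay below replicate 2 with saline. The wild-type call was lost without any 1 of the 6 wild-type arrays (limma adjusted p between 0.0613 and 0.103). The knockout call was lost without knockout saline replicate 1 (0.0518) or 3 (0.126) or knockout R848 replicate 1 (0.0769) or 2 (0.131).

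Dhcr7 and Ebp went the other way. Dhcr7, the reductase that turns 7-dehydrocholesterol into cholesterol, read 5.95, 5.93 and 5.73 in knockout and 6.20, 6.11 and 5.99 in wild-type cells with R848, against 6.88, 6.71 and 6.66 in knockout and 6.97, 6.81 and 6.90 in wild-type cells with saline. All R848 arrays lay below all saline arrays. With R848 the knockout arrays lay below the wild-type arrays, a difference of -0.23 that did not pass (limma adjusted p = 0.454). Dhcr7 fell by 0.88 on the log2 scale in knockout (SE 0.089, limma adjusted p = 1.3e-06) and fell by 0.79 in wild-type cells (SE 0.089, 4.18e-06). Ebp, the sterol isomerase upstream of Sc5d, fell by 0.31 in each genotype (SE 0.079, limma adjusted p = 0.00511 in knockout and 0.00516 in wild type), a call lost after median centring (-0.17 in knockout with adjusted p = 0.097, and -0.18 in wild type with 0.0776). The squalene epoxidase Sqle changed by 0.53 in knockout (limma adjusted p = 0.0741) and 0.34 in wild-type cells (0.271), and passed in both with the block within genotype (0.000459 in knockout and 0.00936 in wild type). The lanosterol synthase Lss, the C4-demethylation enzymes Msmo1 and Nsdhl and the sterol reductase Tm7sf2 had changes between -0.20 and 0.26 and did not pass in either genotype without a block. With it Msmo1 passed in knockout (0.26, limma adjusted p = 0.0251) and Tm7sf2 in wild-type cells (-0.20, 0.0427). After median centring Msmo1 (limma adjusted p = 0.0444) and Nsdhl (0.034) passed in knockout cells. With array weights Tm7sf2 passed in wild-type cells (0.0433).

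Among the regulators, Srebf2, which encodes SREBP2, read 9.01, 8.85 and 8.73 in knockout and 9.10, 8.89 and 8.82 in wild-type cells with R848, against 8.58, 8.49 and 8.11 in knockout and 8.76, 8.70 and 8.53 in wild-type cells with saline. The treatments did not overlap in either genotype. Its rise of 0.47 ± 0.12 in knockout passed (limma adjusted p = 0.00553), and its change of 0.27 ± 0.12 in wild-type cells did not (0.0938). The wild-type change passed in 6 of the 23 alternatives run for it, among them the block within genotype (limma adjusted p = 0.0136), median centring (0.40, 0.0133) and the fit without knockout replicate 3 in both treatments (0.037). The difference between those changes was 0.20 ± 0.17 (limma adjusted p = 0.996). Srebf1, which encodes SREBP1, read 7.26, 7.06 and 7.01 in knockout and 7.32, 7.29 and 7.37 in wild-type cells with R848, against 7.35, 7.29 and 7.18 in knockout and 7.44, 7.55 and 7.48 in wild-type cells with saline. Its change with R848 was -0.16 ± 0.08 in each genotype (limma adjusted p = 0.122 in knockout and 0.131 in wild type). In each treatment the 3 knockout arrays of Srebf1 lay below the 3 wild-type arrays. The difference did not pass, at -0.22 ± 0.08 in each treatment (limma adjusted p = 0.422 with R848 and 0.258 with saline).

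Insig1, a sterol-sensitive retention protein and itself a target of SREBPs, read 9.57, 9.61 and 8.93 in knockout and 9.72, 9.50 and 9.46 in wild-type cells with R848, against 9.04, 9.19 and 8.45 in knockout and 9.34, 9.20 and 9.16 in wild-type cells with saline. In wild-type cells the treatments did not overlap, and in the knockout replicate 3 with R848 lay below replicates 1 and 2 with saline. Its change was 0.48 ± 0.19 in knockout (limma adjusted p = 0.0523) and 0.33 ± 0.19 in wild-type cells (0.194). Without knockout replicate 3 in both treatments both passed, at 0.48 in knockout (limma adjusted p = 0.00422) and 0.33 in wild-type cells (0.0107), as they did with the block within genotype (0.000146 in knockout and 0.00249 in wild type). Insig2, the second retention protein, fell by 0.33 in knockout (SE 0.10, limma adjusted p = 0.016) and fell by 0.35 in wild-type cells (SE 0.10, 0.0123), calls lost after median centring (-0.19 and -0.22, adjusted p = 0.128 and 0.085) and cyclic loess (-0.20 and -0.23, 0.137 and 0.0914). The knockout call was also lost without knockout saline replicate 1 (limma adjusted p = 0.0828) or knockout R848 replicate 3 (0.0522). The wild-type call was lost without wild-type saline replicate 3 (0.0505) or wild-type R848 replicate 1 (0.0571). Scap, the escort protein, rose by 0.43 ± 0.087 in knockout (limma adjusted p = 0.000925) and 0.41 ± 0.087 in wild-type cells (0.00155). A second, dim row of Scap, with a mean of 4.05, changed by 0.10 in knockout and 0.21 in wild-type cells.

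The sterol carriers were mixed. Npc1, which exports cholesterol from late endosomes, read 8.93, 8.90 and 8.95 in knockout and 9.02, 8.85 and 8.95 in wild-type cells with R848, against 9.81, 9.81 and 9.70 in knockout and 9.62, 9.65 and 9.53 in wild-type cells with saline. All R848 arrays lay below all saline arrays. With saline the knockout arrays lay above the wild-type arrays, a difference of 0.17 that did not pass (limma adjusted p = 0.328). Npc1 fell by 0.85 on the log2 scale in knockout (SE 0.072, limma adjusted p = 1.93e-07) and fell by 0.66 in wild-type cells (SE 0.072, 3.03e-06). A second, dim row of Npc1, with a mean of 4.06, changed by 0.07 in knockout and -0.17 in wild-type cells. Stard4, a soluble sterol carrier, rose in wild-type cells by 0.40 ± 0.13 (limma adjusted p = 0.0242), and its change of 0.26 ± 0.13 in knockout did not pass (0.138) without a block and passed with it (0.0241). The difference between them was -0.15 ± 0.19 (limma adjusted p = 0.996), and the wild-type call was lost without wild-type saline replicate 1 (0.063) or 2 (0.0796) or wild-type R848 replicate 1 (0.0509) or 2 (0.0848). Npc2, the lumenal partner of Npc1, changed by -0.14 in knockout and -0.15 in wild-type cells and did not pass.

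In the fatty acid arm the largest fall was in Fads1, the delta-5 desaturase of polyunsaturated fatty acids. It read 7.60, 7.22 and 7.29 in knockout and 7.79, 7.59 and 7.66 in wild-type cells with R848, against 9.25, 9.01 and 8.77 in knockout and 9.44, 9.26 and 9.20 in wild-type cells with saline. Every R848 array lay below every saline array. It fell by 1.64 on the log2 scale in knockout (SE 0.12, limma adjusted p = 5.3e-08) and fell by 1.62 in wild-type cells (SE 0.12, 6.93e-08), to 0.321 of the saline level in knockout and 0.325 in wild-type cells. Elovl6, which elongates palmitate, read 5.49, 5.52 and 5.17 in knockout and 6.12, 5.80 and 5.94 in wild-type cells with R848, against 6.26, 5.90 and 5.93 in knockout and 6.63, 6.58 and 6.21 in wild-type cells with saline. Within each genotype the treatments did not overlap. With R848 neither did the genotypes, though their difference of -0.56 did not pass (limma adjusted p = 0.19). Elovl6 fell by 0.64 in knockout (SE 0.14, limma adjusted p = 0.00138) and fell by 0.52 in wild-type cells (SE 0.14, 0.00635).

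The other 5 fatty acid enzymes did not pass with R848 without a block, and with the replicate number as a block within genotype 3 of them did. Fads2, the delta-6 desaturase, changed by -0.64 ± 0.29 in knockout (limma adjusted p = 0.0933) and -0.70 ± 0.29 in wild-type cells (0.0717). With the block it passed in knockout (limma adjusted p = 0.00021) and in wild-type cells (0.000111), and it also passed without knockout replicate 3 in both treatments (-0.68 in knockout with 0.0323, and -0.70 in wild type with 0.00914). In wild-type cells Fads2 also passed with array weights (limma adjusted p = 0.0245) and with only the arrays compared (0.00248). Scd1, which makes monounsaturated fatty acids, changed by -0.59 ± 0.44 in knockout (limma adjusted p = 0.309) and -0.68 ± 0.44 in wild-type cells (0.252), with the largest standard error among the members, and passed with the block (0.0103 in knockout and 0.00475 in wild type). Fasn, the fatty acid synthase, changed by 0.35 in knockout and 0.26 in wild-type cells. It passed in knockout with the block (limma adjusted p = 0.0125) and after median centring (0.0236). Acly, which makes cytosolic acetyl-CoA, changed by -0.03 in knockout and -0.17 in wild-type cells, and Acaca, the acetyl-CoA carboxylase of fatty acid synthesis, by -0.09 in knockout and 0.02 in wild-type cells. The sign for Acly and Acaca in knockout cells turned positive after median centring (0.12 and 0.05) and cyclic loess (0.02 and 0.05).

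**Figure D2:**
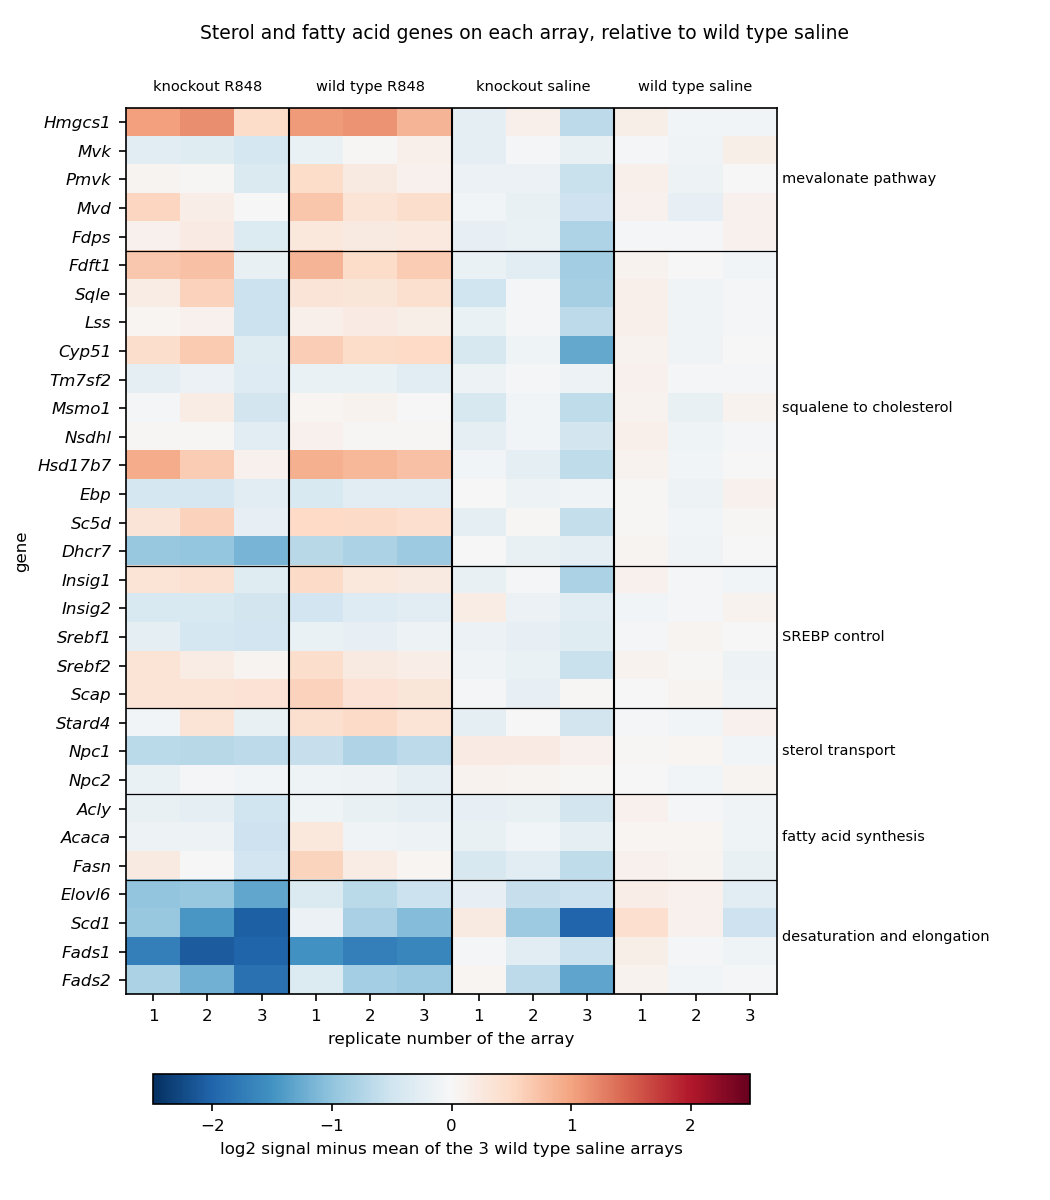
The 31 measured members by array, as log2 intensity minus the gene's mean over the 3 wild-type saline arrays, in rows by role and columns by group, from knockout with R848 at the left to wild type with saline at the right. The third knockout column of each treatment is the lowest of its group for 26 of the 31 members, Cyp51 among them.

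Between the genotypes, the members leaned lower in the knockout, and the lean was smaller without knockout replicate 3. With saline 0 of 31 members passed the threshold in limma, where 0.334% of all genes passed, and 12 (38.7%) had an unadjusted p under 0.05, where 12.6% of all genes did. The difference was negative for 29 of 31, with a median of -0.27, against -0.01 over all genes. With R848 0 of 31 passed, where 0.135% of all genes passed, and 8 (25.8%) had an unadjusted p under 0.05, where 8.74% of all genes did. The difference was negative for 30 of 31, with a median of -0.24, against -0.02 over all genes. Without knockout replicate 3 in both treatments the median was -0.14 with saline and -0.06 with R848, and 28 and 23 of 31 were negative. That fit was chosen after the data were seen. The members stood low on this replicate, so leaving it out raises their knockout mean by construction. These comparisons do not share arrays between treatments, but arrays of the same number within the knockout deviated together. Where the arrays of a member did not overlap between genotypes within a treatment, this describes the values and carries no call. The share of all genes without such overlap is not given here.

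Averaged over treatments, 1 of 31 members passed, where 1.78% of all genes passed, and 22 (71.0%) had an unadjusted p under 0.05, where 16.1% of all genes did. That member was Elovl6, at -0.50 ± 0.096 (limma adjusted p = 0.0204), with -0.56 with R848 and -0.44 with saline. The call was lost without knockout replicate 3 in both treatments (-0.42, limma adjusted p = 0.0611) and without knockout saline replicate 2 (-0.47, 0.0549). With array weights 2 members passed, where 2.79% of all genes did, and with the replicate number as a block across genotypes 6 did, where 2.86% of all genes did. The other 3 enzymes of desaturation and elongation were -0.85 (Scd1), -0.61 (Fads2) and -0.30 (Fads1), with limma adjusted p between 0.101 and 0.184, and Fasn was -0.39 (0.108). All 16 sterol enzymes and all 7 fatty acid enzymes had a negative averaged difference, with medians of -0.26 and -0.39. The positive ones were Npc1, at 0.08, and Npc2, at 0.06. The averaged fit treats same-numbered knockout arrays as independent, though they deviated together. A shortfall on 1 knockout replicate thus enters from each treatment. The averaged p-values, that of Rasgef1b included, may be too small, and the signs are not independent. Without knockout replicate 3 in both treatments, chosen after the data were seen, the members' median went from -0.26 to -0.11. In that fit 28 of 31 were negative and 0 passed.

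For the interaction, which asks whether the response to R848 differs between the genotypes, 0 of 31 members passed in limma, where 0.0142% of all genes passed, and 0 had an unadjusted p under 0.05, where 4.93% of all genes did. The member estimates lay between -0.19 and 0.34, with a median of 0.03. The smallest p-values were those of Npc1, at -0.19 ± 0.10 (limma adjusted p = 0.986), Mvk, at -0.18 ± 0.13, and Srebf2, at 0.20 ± 0.17 (0.996 each). Cyp51, Srebf2 and Stard4 passed in 1 genotype alone without a block and in both with the block within genotype. A p past the threshold in 1 genotype alone is not thereby shown to be a difference between genotypes, and a p that misses the threshold does not show that the responses were alike.

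The member genes set knockout replicate 3 apart from the other knockout arrays, in both treatments. Their mean level was 7.52, 7.50 and 7.11 on the 3 knockout arrays and 7.71, 7.59 and 7.56 on the wild-type arrays with R848, against 7.47, 7.44 and 7.06 in knockout and 7.68, 7.56 and 7.57 in wild-type cells with saline. Replicate 3 was the lowest of the 3 knockout arrays for 26 of 31 members with R848 (83.9%, against 28.5% of all genes) and for 26 of 31 with saline (83.9%, against 33.9%). It lay more than 0.3 below the mean of replicates 1 and 2 for 19 of 31 members with R848 (61.3%) and 18 of 31 with saline (58.1%), where 3.54% and 4.57% of all genes did. The median deviation of the members was -0.36 in each treatment, against 0.01 with R848 and 0.00 with saline over all genes. Deviations in the treatments correlated across the 31 members with Pearson's r of 0.80, against 0.28 across all genes, a description in which the points share their arrays.

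**Figure D3:**
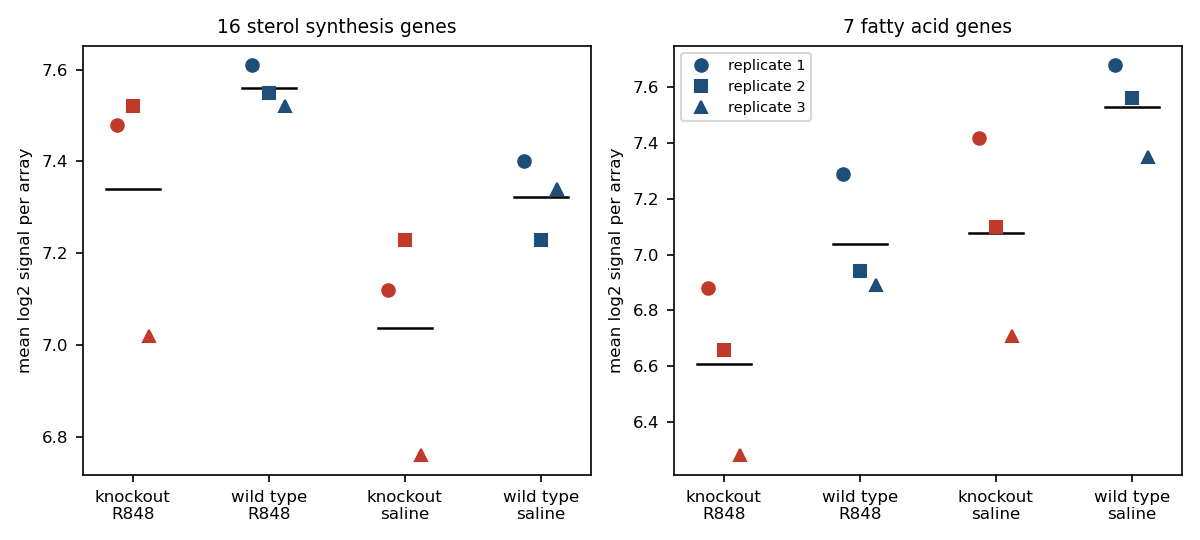
Mean log2 level of the member genes on each array, for the 16 sterol enzymes and the 7 fatty acid enzymes, with 1 point for each array (knockout red, wild type blue, the shape giving the replicate number) and a line at the group mean. For the sterol enzymes knockout replicate 3 lies at 7.02 with R848 and 6.76 with saline, below the next lowest arrays of its group at 7.48 and 7.12, and for the fatty acid enzymes number 1 is the highest and number 3 the lowest array of every group.

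The genes with the largest shortfall on knockout replicate 3 came from several branches of the pathway. As deviations from the mean of the other 2 knockout arrays, Scd1 stood at -0.84 with R848 and -1.64 with saline, which put it at levels of 4.26 and 4.32, near the dim limit. Cyp51 stood at -0.85 and -1.03, Fads2 at -0.86 and -1.0, Sqle at -0.92 and -0.56, Fdft1 at -0.88 and -0.67, Insig1 at -0.66 and -0.66, Hmgcs1 at -0.63 and -0.60, and Lss at -0.61 and -0.56. Of 14079 genes tested, 19 lay more than 0.5 below in both treatments, and these 8 were among them (42.1% of the 19, 25.8% of the 31 members), while 0 members were among the 9 genes that lay more than 0.5 above. Not every member shared it: the deviations of Npc1, Npc2, Ebp, Scap, Mvk and Tm7sf2 lay between -0.15 and 0.16. Among the 5 regulators the deviations with R848 and saline were -0.66 and -0.66 for Insig1, -0.20 and -0.43 for Srebf2, -0.15 and -0.14 for Srebf1, -0.07 and -0.29 for Insig2, and 0.02 and 0.16 for Scap.

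**Figure D4:**
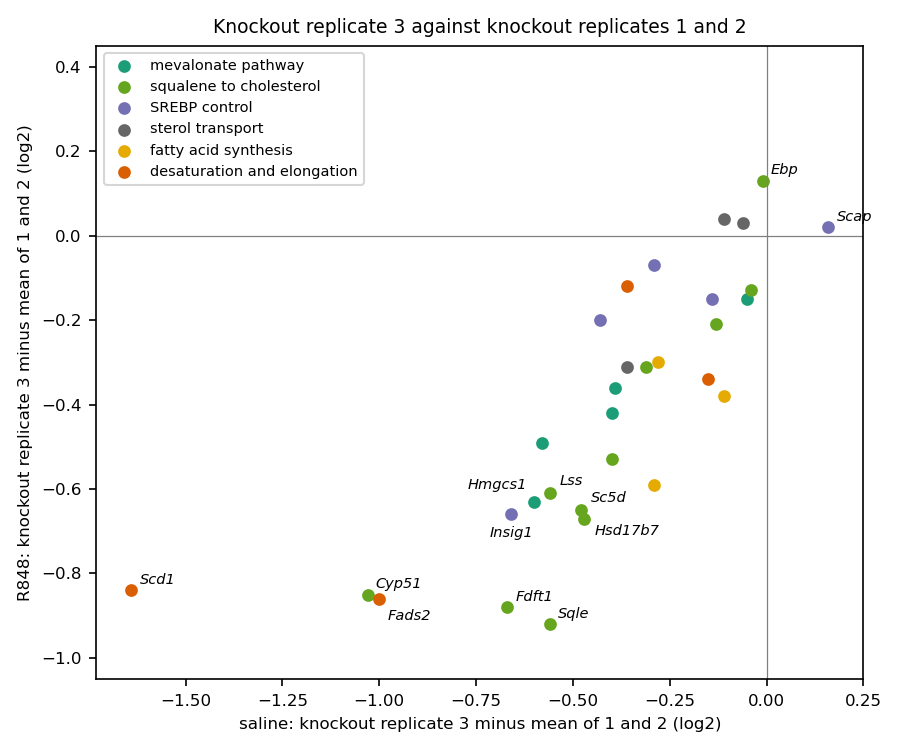
Deviation of knockout replicate 3 from the mean of knockout replicates 1 and 2, on the log2 scale, with saline on the x axis and R848 on the y axis, 1 point for each member. Scd1 (-1.64, -0.84) and Cyp51 (-1.03, -0.85), with Fads2 beside it, lie at the lower left, and Ebp and Scap near 0.

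The mean of the 8 macrophage markers on knockout replicate 3 was 10.24 with R848, in a group range of 10.22 to 10.30, and 10.58 with saline, the lowest of 10.58 to 10.75. Dendritic cell markers stood there at 5.34 with R848 (5.34 to 5.37) and 5.52 with saline (5.40 to 5.52), and fibroblast markers at 4.68 (4.58 to 4.70) and 4.54 (4.49 to 4.54). Whether a difference in cell makeup has a part in the shortfall was not tested. Within a replicate number the response to R848 was the same in direction for most members: the difference between the R848 and the saline array of the same number had 1 sign for 29 of 31 members in knockout cells (17 higher, 12 lower) and 26 of 31 in wild-type cells (14 higher, 12 lower). Hmgcs1, for example, differed by 1.25, 1.03 and 1.11 in knockout and 0.92, 1.19 and 0.93 in wild-type cells. The share of all genes with 1 sign was not computed, so these counts do not set the members apart from other genes. The wild-type arrays did not meet the check for pairing by number. Without regard to number, the groups did not overlap for 14 of 31 members in knockout cells, where this held for 48.8% of all genes, and for 23 of 31 in wild-type cells, where it held for 48.1%.

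The fatty acid enzymes also varied with the replicate number in wild-type cells. Their mean on arrays 1, 2 and 3 was 6.88, 6.66 and 6.28 in knockout and 7.29, 6.94 and 6.89 in wild-type cells with R848, against 7.42, 7.10 and 6.71 in knockout and 7.68, 7.56 and 7.35 in wild-type cells with saline. Array 1 was the highest for all 7 enzymes in wild-type cells with R848 (against 36.8% of all genes) and for 6 of 7 with saline (against 26.4%). This was not particular to the fatty acid enzymes. In wild-type cells array 1 was also the highest for 9 of the 16 sterol enzymes with R848 (56.2%) and for 11 of 16 with saline (68.8%). Scd1 varied most, at 5.35, 4.85 and 4.26 in knockout and 6.16, 5.49 and 5.22 in wild-type cells with R848, against 6.53, 5.39 and 4.32 in knockout and 6.72, 6.42 and 5.78 in wild-type cells with saline. Fads2 read 7.85, 7.44 and 6.78 in knockout and 8.30, 7.79 and 7.73 in wild-type cells with R848, against 8.68, 7.98 and 7.33 in knockout and 8.73, 8.57 and 8.62 in wild-type cells with saline. The labels do not say what arrays of the same number share.

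Other genes of these pathways were read from a list outside the members. Of 35 such genes 27 had a row and 25 were tested. With R848, 4 rose and 11 fell in knockout cells, 60% of the 25, where 41.6% of all genes passed. In wild-type cells 4 rose and 10 fell, 56%, where 38.3% of all genes passed. In limma 0 of 25 passed for genotype with saline, with R848, averaged, or for the interaction. Of all genes 0.334%, 0.135%, 1.78% and 0.0142% passed, in the same order. An unadjusted p under 0.05 was found for 3 of the 25 with saline, 5 with R848, 8 averaged and 0 for the interaction, shares of 12%, 20%, 32% and 0%. The shares of all genes were 12.6%, 8.74%, 16.1% and 4.93%. Lpin1, a phosphatidate phosphatase of lipid synthesis, fell by 1.62 in knockout (limma adjusted p = 1.36e-07) and fell by 1.47 in wild-type cells (4.24e-07). Idh1, a cytosolic source of NADPH, fell by 1.17 in knockout (limma adjusted p = 2.26e-07) and fell by 0.90 in wild-type cells (4.28e-06). Lbr, a sterol reductase of the nuclear envelope, fell by 0.61 in knockout (limma adjusted p = 0.00192) and fell by 0.81 in wild-type cells (0.000199). Mid1ip1, which activates acetyl-CoA carboxylase, fell by 0.96 in knockout (limma adjusted p = 3.46e-06) and fell by 0.75 in wild-type cells (4.15e-05), while a second row of Mid1ip1 changed by -0.14 in knockout (0.197) and -0.01 in wild-type cells.

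Ch25h makes 25-hydroxycholesterol, an oxysterol known to hold back SREBP processing through INSIG. It read 6.39, 6.56 and 7.23 in knockout and 6.33, 6.45 and 6.65 in wild-type cells with R848, against 5.36, 4.83 and 6.15 in knockout and 5.21, 5.75 and 5.81 in wild-type cells with saline. The treatments did not overlap in either genotype, and knockout replicate 3 was the highest array of its treatment in both, and lay 0.76 with R848 and 1.05 with saline above the mean of the other 2 knockout arrays. Ch25h was thus among the 9 genes more than 0.5 above on that replicate in both treatments, on which the sterol genes stood low. Its part in that shortfall was not tested. With R848 Ch25h rose by 1.28 ± 0.28 in knockout (limma adjusted p = 0.00156) and 0.89 ± 0.28 in wild-type cells (0.0189). The wild-type call was lost without wild-type saline replicate 1 (0.70, limma adjusted p = 0.0855) or wild-type R848 replicate 3 (0.80, 0.0692). A second, dim row of the gene, with a mean of 4.33, changed by 0.26 in knockout (limma adjusted p = 0.0383) and 0.20 in wild-type cells (0.114).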

How the data were processed

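Expression was measured on 12 Mouse Gene 2.1 ST arrays. Per the submitters' processing notes, the authors used Affymetrix Expression Console and RMA, and the deposited values are log2 intensities. Their versions and settings are not stated. RMA gives all arrays nearly the same distribution, so a change in total RNA per cell is not visible, and differences of dim rows are compressed. Scan dates and strips were not used here. The number of arrays limits the precision.

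Of 34472 rows, 23521 carried 1 gene symbol, 1814 several and 9137 none in the platform annotation. A gene entered the tests if on at least 3 arrays it lay above the 40th percentile (4.31 to 4.35) of single-symbol rows, which left 14079 of 22180 genes. Groups came from the sample titles. One linear model for each gene held all 12 arrays and a mean for each group (lmFit and eBayes of limma 3.58.1, run in R 4.3.3), with Benjamini-Hochberg adjustment over all tested genes within each contrast and a threshold of 0.05. Every adjusted p is limma's. The fit was tested on simulated data. Alternatives changed the variance model, the dim filter, the scaling, the arrays fitted, the weights, the row of a gene, the block and single arrays.

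Members and lists were chosen with earlier results of these data known. A member has its value on every array in the text if it passed in any contrast with a log2 change of at least 0.5, had 1 of the 3 smallest interaction p-values, or was Srebf1, Srebf2 or Insig1. Of the other pathway genes, up to 4 per contrast past the threshold with the largest change were named. Scd1 and Fads2 were given by array after their values were seen. Pairing by replicate number was taken to hold where residuals of every same-numbered pair correlated above 0.1. The knockout R848 and saline arrays met this (0.272, 0.172 and 0.275), a pairing that the labels do not state. The wild-type arrays did not (0.252, -0.0568 and 0.23), nor did arrays across genotypes.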

Additional observations from a re-analysis of the deposited data

How the results depend on the processing

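The number of members past the threshold ranged, when 1 array was left out, between 12 and 19 for R848 in knockout cells, between 9 and 16 for R848 in wild-type cells and between 0 and 2 for genotype averaged over treatments (2 without knockout saline replicate 1 or knockout R848 replicate 1, and 0 without knockout saline replicate 2), and it was 0 for genotype within each treatment and for the interaction. Among the alternatives, 2 were chosen after seeing the data. With genotype and replicate number as a replicate block, 22 members passed in knockout (14 higher and 8 lower, 71.0%, against 44.5% of all genes) and 22 in wild-type cells (13 higher and 9 lower, 71.0%, against 41.2%). Without knockout replicate 3 in both treatments, 0 passed for genotype averaged over treatments, and the averaged difference of Hmgcs1 was 0.01, where it was -0.20 with all arrays. The averaged count was 2 with array weights, where 2.79% of all genes passed, and 6 with the replicate number as a block, where 2.86% did, against 1.78% with neither. All 6 were lower in knockout (Elovl6, Scd1, Fads2, Fads1, Fasn and Pmvk). Numbers do not pair the arrays across genotypes by the check used, and the cause of the larger count was not tested. Mvk, near 0 in wild-type cells with R848, turned positive after median centring (0.13), cyclic loess (0.13), with array weights (0.05), and without wild-type saline replicate 3 (0.06) or R848 replicate 1 (0.08), in a range of -0.07 to 0.08 over single arrays left out. Small changes with R848 in knockout cells that turned were those of Acly after median centring (0.12) and cyclic loess (0.02) and without single arrays (-0.12 to 0.07), Acaca after median centring (0.05), cyclic loess (0.05), without knockout replicate 3 in both treatments (0.00) and without single arrays (-0.16 to 0.04), Lss without single arrays (-0.03 to 0.36), and Tm7sf2 and Npc2, at 0.00 after median centring. In wild-type cells they were Acaca with array weights (-0.04) and without single arrays (-0.10 to 0.09), and Msmo1 (-0.04 to 0.10) and Nsdhl (0.00 to 0.12) without single arrays. Over the 86 gene-and-contrast values recomputed, which hold every member's change with R848, leaving out 1 array ended a call 31 times and made one 24 times. With 3 arrays for each group, small changes could not be told from array spread.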

Other observations

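Beyond the pathway genes, 11 other genes lay more than 0.5 below on knockout replicate 3 in both treatments. They were picked after their values were seen and carry no test. Among them were Itgax, the integrin CD11c, at -0.74 with R848 and -0.92 with saline, Clec7a, the beta-glucan receptor Dectin-1, at -0.58 and -0.77, Fabp4, a fatty acid-binding protein, at -0.53 and -0.92, Vegfa, a vascular growth factor, at -0.54 and -0.91, and Atp6v0d2, a subunit of the vacuolar proton pump, at -0.53 and -0.60. On the other side, Prim1, a subunit of DNA primase, lay 0.62 and 0.73 above, and Asf1b, a histone chaperone of DNA replication, 0.71 and 0.60 above. What these genes share with the sterol enzymes on this replicate was not tested.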
